A study of Mus musculus with 4 samples.

Results

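Spinous keratinocytes of mouse digits after digit tip amputation were examined in 4 single-cell RNA-Seq libraries. They were chosen for the summed level of the suprabasal keratins Krt1 and Krt10, with little or none of the palm and sole keratin Krt9. These cells were chosen by their own measured values: Krt1 and Krt10 together at 2% or more of a barcode's unique molecular identifiers (UMIs, each 1 captured RNA molecule), Krt9 under 0.05%, and fewer than 4 of the 7 granular-layer genes Slurp1, Wfdc21, Wfdc12, Hrnr, Hal, Lypd5 and Cnfn detected. Of 93602 barcodes kept for their gene, UMI and mitochondrial content, 7172 fell inside these limits and are called members here. There were 2903 members in the SAR131675 library, 2909 in the control diet library, 613 in the lymph node removal (LNR) library and 747 in the sham library. Below, 4 values given together follow that order.

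All mice were female C57BL/6 of 6 to 8 weeks (C57BL/6J in the study's methods), and the digits were taken 8 days after amputation through the terminal phalanx (P3), a level from which the mouse digit tip grows back. SAR131675, an inhibitor of the lymphatic receptor VEGFR3, was fed in chow at 30 mg/kg, for 8 days according to the labels, whereas the study's methods start the chow before the amputation and so give a longer time, and its comparison library came from mice on control chow. For LNR, the inguinal and popliteal lymph nodes of a limb were taken out, and the other limb served as sham, as the study describes it. The labels call that library the LNR control and give it no treatment, so whether a sham operation was done is not settled by the sources, and it is called the sham library by the study's name. Each library pooled hindlimb digits 2 to 4 of 10 mice, so there was 1 library per condition, each named as its own batch in the labels. Condition, pool and library cannot be told apart. The study's methods amputate the P3 tip of digits 2 and 4 only, and take the pooled digits at the proximal P2 level. Members may therefore include cells of the uncut digit between them and of skin outside the regenerating tip. No comparison between conditions has a replicate check, and none was tested. Every interval given is a 95% interval that covers counting error only. Levels are CPM, the UMIs of a gene over all UMIs of a group of cells, scaled to the same total in every group.

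Keratinocytes that leave the basal layer of the epidermis switch off Krt5 and Krt14 and build their cytoskeleton from Krt1 and Krt10, which pair as type II and type I filament proteins. Krt2, another type II keratin, is made by upper suprabasal cells and can take the place of Krt1 beside Krt10, while Krt9 is a type I keratin of thick, hairless skin. Further out, granular cells make filaggrin, loricrin and the lipid enzymes of the skin barrier.

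The sequences just upstream of 3 of these keratin genes are given because the members are defined by Krt10, divided by Krt2 and lack Krt9. Each line holds the 250 bases before the annotated start of transcription from RefSeq on GRCm38.p6, an earlier build than the GRCm39 that the labels list for the count files, all on the minus strand. Krt10 lies at chr11:99389365-99389614, Krt2 at chr15:101818170-101818419 and Krt9 at chr11:100193247-100193496. Capitals mark matches to a TATA box (TATAAA) or a GATA motif (AGATAA). Both strands were searched for these 2 and for the AP-1 motif (TGANTCA), and no match overlapped another.
Krt10: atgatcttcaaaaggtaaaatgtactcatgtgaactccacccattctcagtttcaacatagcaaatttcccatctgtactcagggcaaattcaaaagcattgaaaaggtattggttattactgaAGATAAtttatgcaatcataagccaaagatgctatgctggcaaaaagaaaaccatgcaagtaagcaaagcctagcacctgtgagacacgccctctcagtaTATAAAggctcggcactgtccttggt
Krt2: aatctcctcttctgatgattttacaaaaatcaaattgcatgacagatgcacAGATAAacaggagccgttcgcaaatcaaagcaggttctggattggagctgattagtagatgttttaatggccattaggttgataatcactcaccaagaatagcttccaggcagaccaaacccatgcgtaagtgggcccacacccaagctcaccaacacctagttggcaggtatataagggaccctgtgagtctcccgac
Krt9: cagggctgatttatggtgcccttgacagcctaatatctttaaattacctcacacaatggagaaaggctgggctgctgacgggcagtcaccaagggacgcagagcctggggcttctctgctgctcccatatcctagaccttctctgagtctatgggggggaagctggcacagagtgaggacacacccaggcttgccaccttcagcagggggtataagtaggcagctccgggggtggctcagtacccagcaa
The Krt10 sequence held TATAAA starting 26 bases and AGATAA starting 126 bases before the start site. Krt2 held AGATAA starting 199 bases before it, and the Krt9 window held no exact match to any of the 3 motifs. Only these exact letters were searched for. The Krt2 and Krt9 lines both hold TATAAG near the end, which differs from TATAAA in its last letter. The search therefore does not show that either lacks a TATA box. Of 32851 promoters of this length, 12.4% held the TATA motif, 9.99% the GATA motif and 6.75% the AP-1 motif, so each match is a common one and is given as a description. Krt1 had no entry in the sequence table.

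Members were a larger share of kept barcodes in the diet pair of libraries than in the surgery pair. They made up 9.98% of kept barcodes with SAR131675 (9.64 to 10.3%), 12.1% on the control diet (11.7 to 12.5%), 3.09% after LNR (2.86 to 3.34%) and 3.61% in the sham library (3.36 to 3.88%). The pairs were counted with different software versions, and membership is itself a share of UMIs. The upper limit on genes removed 15.1 and 12.9% of barcodes in the diet pair and 1.36 and 1.24% in the surgery pair. The part of either in the gap between pairs was not tested, so shares are compared only within a pair. The log2 ratio of shares was −0.28 for SAR131675 against control diet (−0.35 to −0.20) and −0.23 for LNR against sham (−0.38 to −0.069). Among cells with Krt1, Krt10, Krt5 and Krt14 together at 1% or more of UMIs, members were 22.3% with SAR131675 and 24.4% on the control diet (log2 ratio −0.13, −0.20 to −0.055). On that base the LNR and sham shares were 9.99% and 9.90% (log2 ratio 0.014, −0.14 to 0.17), so the lower share after LNR did not remain. Cells with 4 or more of the granular genes, called granular-gene cells, were 3.58% of kept barcodes with SAR131675 and 5.36% on the control diet, a log2 ratio of −0.58 (−0.70 to −0.46). Cells with Krt9 at the 0.05% limit or above and fewer than 4 granular genes, called Krt9 cells, numbered 105, 62, 9 and 13. How keratinocytes were released from each pool of digits was not measured, and its part in these shares was not tested.

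**Figure D1:**
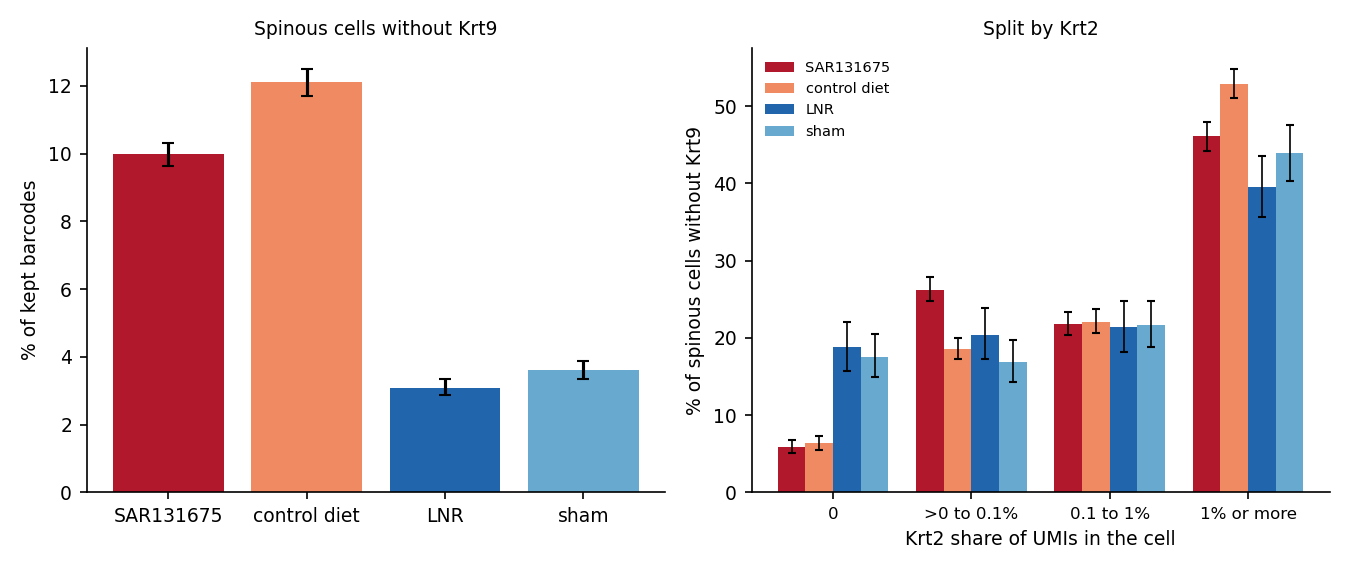
Share of kept barcodes that were members, and the split of members by their Krt2 level, in percent for each of the 4 libraries, with 95% exact binomial intervals. Members were 9.98 and 12.1% in the diet pair and 3.09 and 3.61% in the surgery pair, and members with Krt2 at 1% or more were fewer with SAR131675 (46.1%) than on the control diet (52.9%).

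The limits that chose the members cut through continuous ranges. Cells with Krt1 and Krt10 at 1 to 2% of UMIs, just outside, numbered 1833, 1742, 1129 and 1258, and those at 2 to 3%, just inside, 1606, 1519, 440 and 490. The Krt9 limit cut through few cells: 116, 41, 5 and 3 members had some Krt9 below it, and 13, 15, 3 and 1 cells had 0.05 to 0.2%. With 3 granular genes there were 335, 316, 73 and 111 members, against 229, 258, 75 and 84 cells with 4. Members held a median of 16732, 16051, 10406 and 9949 UMIs, and 62, 314, 10 and 41 of them had under 2000. SAR131675 members with none of the 7 granular genes had a median of 14906 UMIs and those with 3 had 19666, so the number of granular genes detected moved with depth.

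Krt1 and Krt10 chose the members, so their levels are a description and say nothing about the label. Krt10, the type I keratin of suprabasal cells, stood at 24256, 25272, 20006 and 20571 CPM. Its type II partner Krt1 stood at 8056, 7339, 8489 and 9140.0 CPM, and Krt2, which the rule did not use, at 9508, 11955, 8482 and 8778. The desmosomal cadherin Dsg1a was at 1214, 1281, 986 and 1028 CPM and its partner Dsc1 at 362, 476, 234 and 254. Krtdap, a small secreted protein of differentiating keratinocytes, was at 10209, 10693, 17282 and 16483 CPM, and Sbsn, the secreted protein suprabasin, at 1786, 1942, 2309 and 2462. Mt4, the metallothionein of stratified epithelia, was at 5731, 6009, 10050.4 and 10126 CPM, and the calmodulin-like Calm4 at 4435, 4552, 7007 and 6665. The basal keratins were low: Krt5 was at 146, 112, 258 and 277 CPM, against 5507, 6078, 5882 and 5758 in basal cells (Krt5 and Krt14 at 1% or more, Krt1 and Krt10 under 0.2%). Krt77 and Krt78, type II keratins listed as spinous, were close to absent at 3.01, 5.39, 2.72 and 1.54 CPM and at 3.14, 4.81, 8.15 and 11 CPM. Of the spinous markers that the rule did not use, Krt2, Krtdap, Dsg1a, Dsc1, Sbsn and Mt4 were at the levels just given, while Krt77 and Krt78 went against the label and Krt2 was unevenly spread over the members. The list did not set members apart from later cells: of 11 such markers that passed the filter described below, 10 were lower in members than in granular-gene cells in all 4 libraries, 4 of them past 2-fold, and 1, Mt4, was higher. Over all genes tested, 22.8% were lower in that comparison, 4.90% past 2-fold, and 58.7% higher.

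Krt2 divided the members. Its share of a member's UMIs had a median of 0.772, 1.16, 0.378 and 0.537%, with quartiles from 0.0320 to 1.58% with SAR131675 and from 0.0124 to 1.47% after LNR. Krt2 made up 1% or more of UMIs in 46.1, 52.9, 39.5 and 43.9% of members and under 0.1% in 32.1, 24.9, 39.2 and 34.4%. These are called Krt2-high and Krt2-low members below, a division made after the values were seen. For scale, the summed Krt2 level in fibroblast cells, which do not make it, was 139, 121, 88.5 and 126 CPM, which puts the Krt2 background from free RNA below the 0.1% limit. The 613 and 747 members of the surgery pair were shallower, and 18.8 and 17.5% of them had no Krt2 UMI at all, against 5.89 and 6.36% in the diet pair.

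In most members the UMIs of these 2 type II keratins were mainly Krt1 or mainly Krt2, and a smaller part held both in quantity. UMIs do not show which protein the filaments held. Krt2 was 80% or more of the sum of Krt1 and Krt2 in 42.9, 49.4, 37.4 and 40.0% of members and under 20% of it in 41.2, 35.3, 48.3 and 44.4%. Between these limits lay 15.9, 15.2, 14.4 and 15.5%. Krt1 and Krt2 both reached 1% of UMIs in 1.27, 1.62, 0.979 and 1.47% of members. Over all members each keratin stood near or under 1% of UMIs, so reaching it with both was hard whatever the split. In Krt2-high members Krt1 stood at 1121, 1118, 906 and 1243 CPM, against 16295, 17234, 15629.6 and 15845 in Krt2-low members. Krt10, which pairs with either, was at 28193, 28868, 24508 and 25027 CPM in Krt2-high members and 18786, 18379.7, 15525 and 16202 in Krt2-low members. Since the rule asks for Krt1 and Krt10 together, a cell with little Krt1 entered only with enough Krt10, and the Krt10 difference is partly fixed by that choice. The sum of Krt1 and Krt2 was 0.724, 0.763, 0.848 and 0.871 of the Krt10 count.

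**Figure D2:**
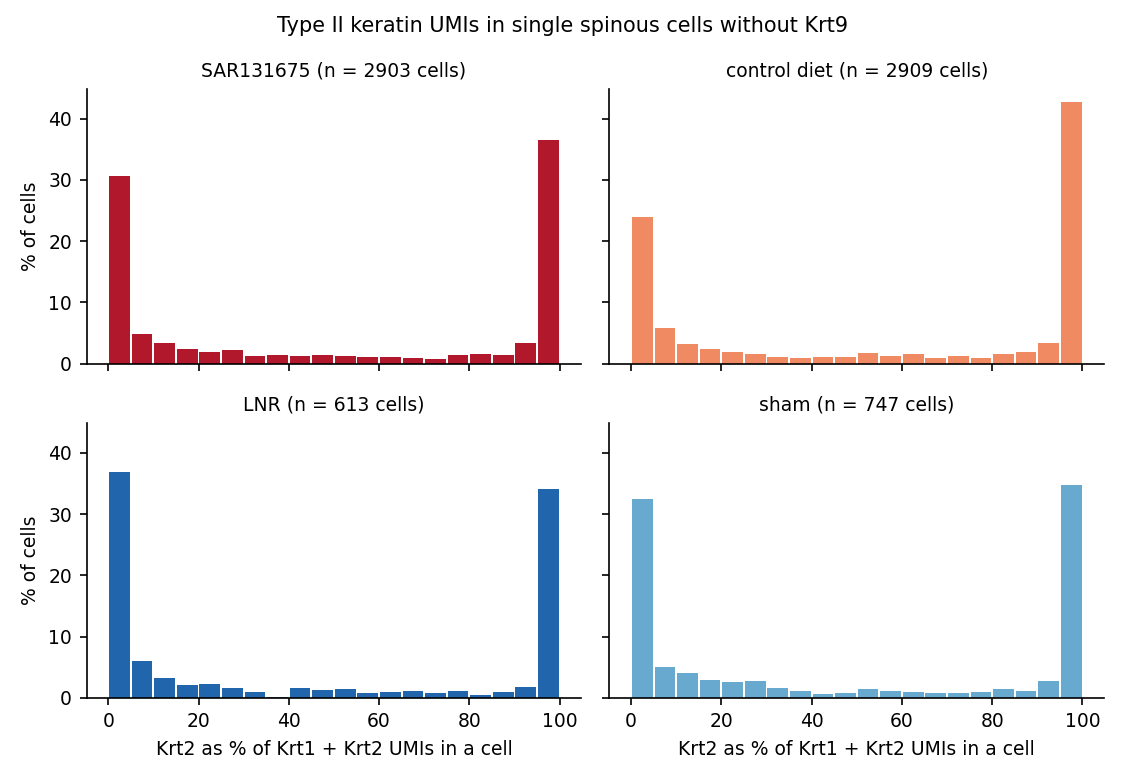
Percent of members (y axis) by the share of Krt2 in the sum of their Krt1 and Krt2 UMIs (x axis, in steps of 5%), a panel for each library. In all 4 panels the 2 end bars were the tallest: 30.7, 23.9, 36.9 and 32.4% of members lay below 5% Krt2 and 36.5, 42.7, 34.1 and 34.8% at 95% or above.

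Between conditions, Krt2-high members were less frequent with SAR131675 than on the control diet, with a log2 ratio of shares of members of −0.20 (−0.31 to −0.094), and Krt2-low members more frequent, at 0.37 (0.23 to 0.51). LNR against sham gave −0.15 (−0.40 to 0.091) and 0.19 (−0.073 to 0.45), both intervals including 0. With Krt1 and Krt10 at 4% or more in place of 2%, the ratios for Krt2-high members were further from 0, at −0.71 (−1.07 to −0.36) and −0.82 (−2.13 to 0.37). Members with none of the 7 granular genes were 36.0% with SAR131675 and 40.4% on the control diet.

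Krt2-high and Krt2-low members differed in many other genes the rule did not use. Of 6891 genes with at least 50 UMIs over both classes in every library, 61 (0.885%) were 2-fold or more higher in Krt2-high members in all 4 libraries and 101 (1.47%) were lower. Both classes come from the same libraries and were divided by a measured keratin, so these values are given without a test. The median log2 ratio of all genes lay between −0.068 and −0.031. Median depth was 18260, 17928, 11680 and 9710.5 UMIs in Krt2-high members and 14657, 13761, 9286 and 9780 in Krt2-low members. Krt2-high members were thus deeper except in the sham library. A granular gene of the rule was detected in 71.2, 68.4, 68.2 and 61.6% of them, against 56.8, 47.4, 47.1 and 49.0% of Krt2-low members. The part of depth and of the granular genes in the differences below was not tested.

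Gadl1, Bco1, Alox12, Alox12e, Gjb2 and F3 were among the 15 genes furthest higher with Krt2. Gadl1, an amino acid decarboxylase, was at 53.1, 41.1, 18.3 and 23.8 CPM in Krt2-high members and 0.507, 0.103, 0 and 0 in Krt2-low members. With 57 and 81 UMIs over all LNR and sham members and none in the Krt2-low ones, it passed the filter there through Krt2-high members alone. Bco1, which cleaves carotene to retinal, was at 27.0, 23.0, 42.0 and 26.2 against 1.30, 1.34, 1.98 and 1.08 CPM. Alox12, a lipoxygenase, was at 41.6, 45.9, 44.4 and 44.2 CPM in Krt2-high members against 4.93, 3.91, 3.17 and 1.80 in Krt2-low members. Its relative Alox12e was at 149, 175, 199.6 and 202 against 38.7, 33.6, 27.7 and 18.0 CPM. The gap junction gene Gjb2 was at 55.7, 62.6, 65.1 and 53.9 against 6.38, 3.29, 11.5 and 7.56 CPM, and F3, the tissue factor that starts clotting, at 199, 209, 204 and 208 against 26.3, 33.9, 27.7 and 41.1. In the surgery pair Bco1, Alox12 and Gjb2 also passed the filter mainly through Krt2-high members. The size of their ratios there rests on few UMIs in Krt2-low members.

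Klk7, Defb6, Krt17 and Sox9 were among the 15 genes furthest lower with Krt2, and all 4 listed markers of the infundibulum, the opening of the hair follicle, were past 2-fold lower, beside 1.47% of all genes. The infundibulum list was not alone in this. All 4 volar keratins and partners that passed the filter were past 2-fold lower too. So were 3 of 7 wound and hyperproliferative genes, with 1 gene of that list higher. The 1 outer follicle and the 1 sweat gland marker that passed were also past 2-fold lower. Krt17 and Sostdc1 are shared between some of these lists. Krt17, a keratin of follicles and wounds, was at 339, 379, 773 and 837 CPM in Krt2-low and 14.7, 7.56, 8.81 and 9.14 in Krt2-high members. Sox9, a transcription factor of the follicle, was at 139.5, 161, 91.9 and 95.1 against 4.75, 5.25, 4.07 and 5.79 CPM. The protease Klk7, which helps shed the outermost cells, was at 287, 189, 171 and 148 against 5.68, 5.05, 3.39 and 2.13 CPM. Krt79, a keratin of the upper follicle, was at 199, 188, 307 and 66.3 against 12.5, 4.35, 7.79 and 8.53 CPM, and the defensin Defb6 at 323, 259, 667 and 278 against 11.6, 3.41, 8.47 and 8.83. In the surgery pair Krt17, Sox9, Klk7, Krt79 and Defb6 passed the filter mainly through Krt2-low members. The size of their ratios there rests on few UMIs in Krt2-high members. Cells under 2000 UMIs were then left out and the others thinned to 2000 UMIs. At least 2 of the 4 infundibulum markers (Krt79, Defb6, Sostdc1, Krt17) were found in 13.0, 11.9, 10.6 and 10.7% of these Krt2-low members, against 0.459, 0.0713, 0.418 and 0.341% of the Krt2-high members. Basal cells gave 10.9, 8.27, 11.2 and 11.6% and all members 4.75, 3.43, 4.15 and 5.24%.

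By list, 17 of the 20 epidermal and barrier lipid genes that passed the filter were higher in Krt2-high members in all 4 libraries and none was lower, with 1 past 2-fold. Over all 6891 genes, 19.7% were higher in all 4 libraries and 31.1% lower. Elovl4, which makes very long fatty acids for barrier lipids, was at 969, 997, 763 and 771 against 584, 559, 395 and 407 CPM. Of 12 desmosome genes, 11 were higher, among them plakophilin Pkp1 (912, 1151, 1008 and 989.5 against 646, 783, 581 and 624 CPM). The exception was Dsg3, the desmoglein of the lower layers, at 24.9, 26.3, 13.2 and 13.7 CPM in Krt2-high and 115, 132, 60.6 and 77.1 in Krt2-low members. Of 11 basal genes 10 were lower, and Krt14 stood at 135, 85.7, 183 and 261 against 679.7, 611, 637 and 691 CPM. The 2 classes did not differ as sharply in Notch1, a receptor of the spinous switch, at 128, 122, 72.5 and 87.1 against 158, 144, 78.0 and 107 CPM.

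**Figure D3:**
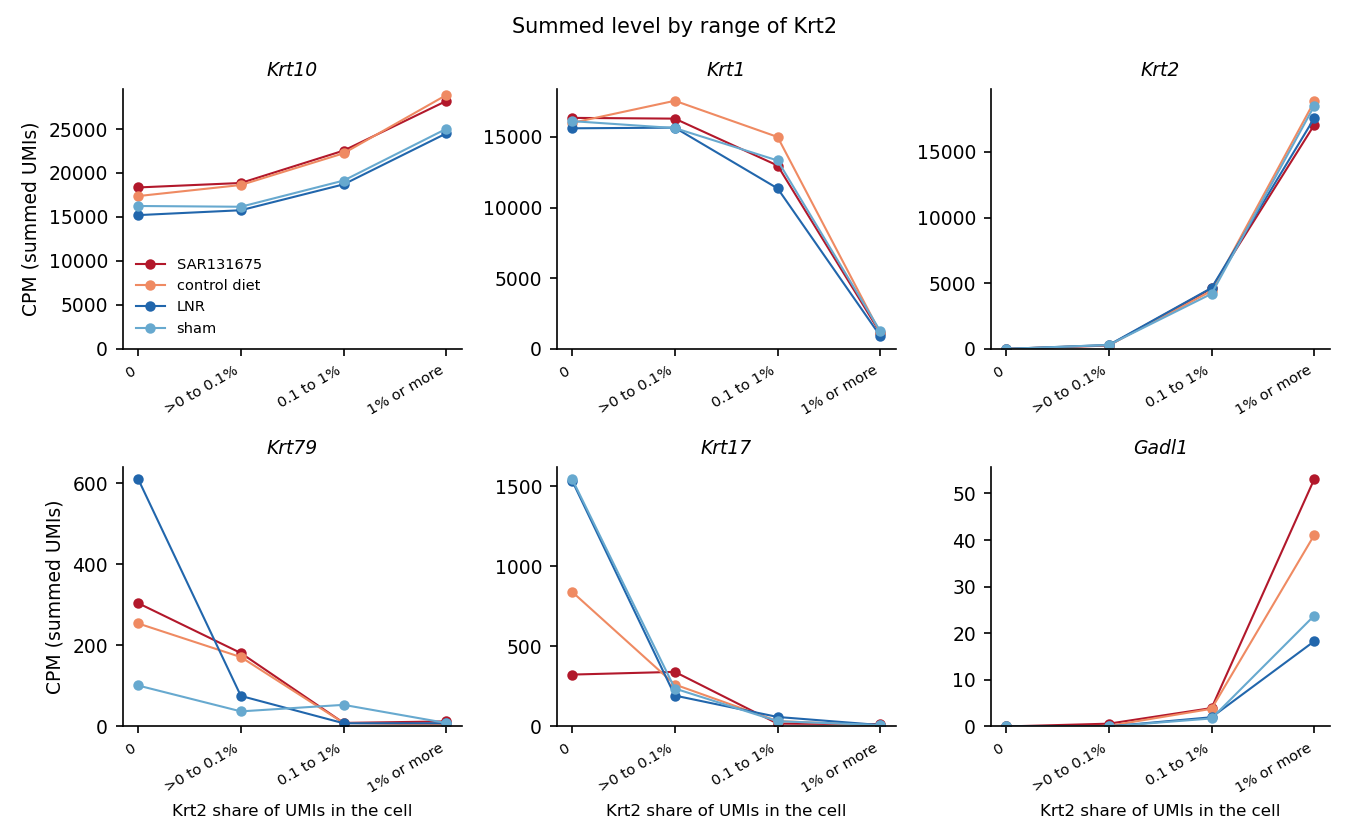
Level (CPM, linear axis) of Krt10, Krt1, Krt2, Krt79, Krt17 and Gadl1 in members grouped by their Krt2 share of UMIs, a line for each library. Krt1 stood between 11352 and 14991 CPM in members with 0.1 to 1% Krt2 and between 906 and 1243 in those with 1% or more. Gadl1 was between 0 and 0.599 CPM in the ranges under 0.1%.

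Members and Krt9 cells were set side by side to see what went with the absence of Krt9. Of 7601 genes with enough UMIs, 114 (1.5%) were 2-fold or more higher in members in all 4 libraries and 32 (0.421%) lower. The Krt9 cells of the surgery pair numbered only 9 and 13 and held 163912 and 157605 UMIs in all, so a gene had to keep its direction in very few cells, and no test was made. The counts were 25 and 5 with Krt1 and Krt10 at 4% or more, 187 and 70 at 1% or more, and 169 and 63 without the LNR library. The balance of directions rested on how low counts were handled: with 5 UMIs added in place of 0.5 it was 15 higher and 104 lower, and with no minimum other than 1 UMI 121 higher and 1190 lower. The median depth of Krt9 cells, 17213, 18597, 18586 and 11971 UMIs, was above that of members.

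The genes furthest lower in members included 2 developmental transcription factors. Tbx1, a T-box transcription factor, was at 46.8, 50.6, 34.2 and 31.8 CPM in members and 282, 307, 238 and 266 in Krt9 cells. En1, the homeobox gene that marks the ventral limb ectoderm, was at 37.1, 41.0, 29.5 and 29.2 against 226, 168, 104 and 197 CPM. Igfbp2, which binds insulin-like growth factors, was at 163, 115, 99.4 and 90.8 against 1462, 1009, 445 and 1047 CPM, and the fatty acid carrier Fabp5 at 3935, 3852, 4490.2 and 4522 against 14739, 14945, 16637 and 15697. Klk13, Igfbp5 and Id2 were also among the 15 genes furthest lower in members.

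Of the 15 genes furthest higher in members, Skint1, Ggct, Tmprss4, Susd2 and Pou3f1 were each at low levels in Krt9 cells. Skint1, a keratinocyte gene known for selecting skin gamma delta T cells, was at 91.3, 111, 47.8 and 52.1 CPM in members and at 0, 6.41, 0 and 0 in Krt9 cells. Ggct, an enzyme of glutathione breakdown, was at 222, 205, 200.3 and 201 against 12.8, 7.32, 12.2 and 6.34 CPM, and the membrane protease Tmprss4 at 128, 120.1, 120.1 and 119 against 3.21, 3.66, 6.1 and 6.34. Susd2 was at 34.0, 30.1, 66.8 and 67.3 CPM against 0, 0.916, 0 and 0, and the POU factor Pou3f1 at 69.6, 65.2, 41.9 and 44.2 against 1.28, 0, 0 and 0. The genes were picked for this direction, and all 5 passed the filter in the surgery pair through members. Ggct had 2 UMIs in the LNR and 1 in the sham Krt9 cells, and Tmprss4 had 1 in each. For Skint1, Susd2 and Pou3f1, the LNR Krt9 cells would have held 7.83, 10.9 and 6.87 UMIs at the level of members, and held 0 of each. Krt2 was lower in Krt9 cells than in members in each library, at 575, 3610.3, 1684 and 76.1 CPM. Of 12 desmosome genes, 4 were higher and 3 lower in members in all 4 libraries, none past 2-fold, beside 16.7% of all 7601 genes higher and 13.7% lower, and the medians of their log2 ratios lay between −0.0050 and 0.023.

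Against granular-gene cells, 494 of 8994 genes (5.49%) were 2-fold or more higher in members in all 4 libraries and 441 (4.90%) lower. The median of all genes was itself shifted by 0.25 to 0.37 on the log2 scale towards members, and granular-gene cells were deeper. The balance moved with the limits: there were 160 higher and 499 lower with Krt1 and Krt10 at 1% or more, 139 and 275 at 4% or more, and 234 and 382 without upper limits on genes and UMIs. By any size, 58.7% of the genes were higher in members in all 4 libraries and 22.8% lower. The 7 granular genes of the rule say nothing here. Of 18 other granular and cornified genes that passed the filter, 16 were past 2-fold lower in members. Flg, filaggrin, was at 17.1, 12.2, 9.72 and 7.69 CPM in members and 3363, 2856, 1439 and 2007 in granular-gene cells. Lor, loricrin, the main protein of the cornified envelope, was at 48.4, 38.9, 29.0 and 29.5 against 3606, 3432, 2934 and 3358 CPM. Barrier lipid genes were lower in 20 of 21, 8 of them past 2-fold, an example being the lipoxygenase gene Aloxe3 (7.68, 11.5, 9.58 and 8.58 against 68.8, 89.6, 65.9 and 69.9 CPM). Tgm3, a transglutaminase, went the other way at 311, 351, 289 and 300.5 CPM in members and 194, 194, 178 and 164 in granular-gene cells.

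Cdh3 was among the 10 genes furthest higher in members than in granular-gene cells. Cdh3, P-cadherin of the lower layers, was at 21.4, 19.3, 8.72 and 9.87 against 3.83, 4.02, 1.93 and 2.19 CPM. Col17a1, which anchors basal cells, was at 235, 246, 159 and 141 against 29.4, 27.0, 44.0 and 46.6 CPM, and Itga6 at 143, 153, 59.3 and 57.0 against 25.1, 21.9, 13.7 and 21.3. In basal cells Cdh3 stood at 92.5, 99.4, 37.0 and 37.6 CPM, Col17a1 at 1368, 1531, 1027 and 949.7 and Itga6 at 787, 825, 311 and 301, so members lay between basal and granular-gene cells for these 3 genes. Of 13 listed basal genes that passed the filter, 9 were higher in members than in granular-gene cells in all 4 libraries, 4 of them past 2-fold, and 1 was lower, beside 58.7%, 5.49% and 22.8% of all genes. Notch3, a Notch receptor, was at 100, 100.2, 34.9 and 37.2 CPM in members, 65.6, 59.4, 29.0 and 26.9 in granular-gene cells and 13.8, 10.5, 6.54 and 7.15 in basal cells.

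**Figure D4:**
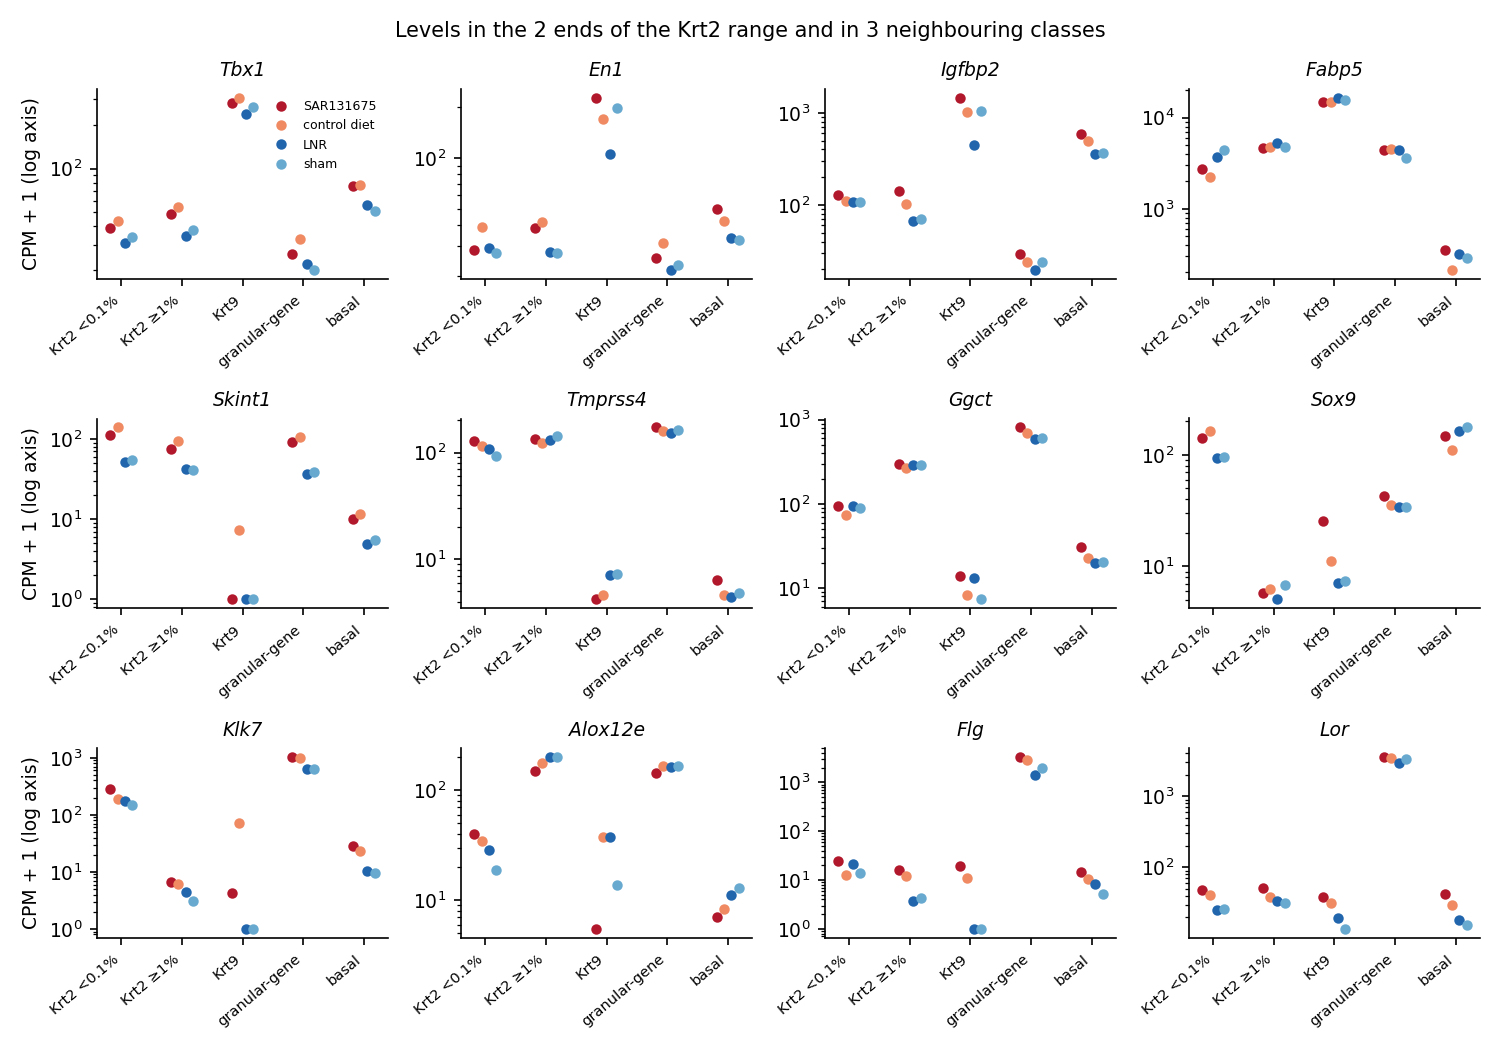
Level (CPM plus 1, log axis) of 12 genes in Krt2-low members, Krt2-high members, Krt9 cells, granular-gene cells and basal cells, a point for each library. Tbx1, En1, Igfbp2 and Fabp5 stood higher in Krt9 cells than in either class of members, Flg and Lor were highest in granular-gene cells, and Sox9 and Klk7 separated the classes of members.

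Of the listed regulators of epidermal differentiation, Klf4 and Zfp750 were each at a level in members between that of basal and of granular-gene cells in every library. Of 19 regulators that passed the filter against granular-gene cells, 12 were lower in members in all 4 libraries, 4 of them past 2-fold, and 6 were higher. Over all genes 22.8% were lower, 4.90% past 2-fold, and 58.7% higher. Klf4, a factor of barrier formation, was at 857, 1072, 878 and 913 CPM in members, 385, 468, 497 and 472 in basal cells and 1408, 1622, 1212 and 1231 in granular-gene cells. Zfp750, an activator of late differentiation, was at 136, 175, 111 and 125 CPM against 16.0, 14.9, 10.9 and 12 in basal cells and 169, 199.8, 143 and 130.1 in granular-gene cells. The transcription factor Maf stood highest in members of these 3 groups, at 381, 303, 281 and 266 CPM against 216, 195, 175 and 166 in basal and 291, 239, 244 and 247 in granular-gene cells. Against Krt9 cells it was lower in members, at log2 ratios of −0.21, −0.061, −0.37 and −0.24. Maf was higher in Krt2-high members (463, 353, 352 and 349 CPM) than in Krt2-low members (244, 191, 198 and 171), while Barx2 went the other way, at 55.5, 45.3, 21.7 and 32.3 against 340, 277, 126 and 140.1. Of the 20 regulators, 18 passed the filter in that comparison, and 9 were higher in Krt2-high members in all 4 libraries and 5 lower, with 1, Barx2, past 2-fold, beside 19.7% of all genes higher, 31.1% lower and 1.47% past 2-fold lower. Prdm1, a repressor found in the outermost living cells, was at 0.842, 0.990, 0.572 and 0.641 CPM in members, from 40, 43, 4 and 5 UMIs, and 21, 23.0, 14.9 and 11.5 in granular-gene cells.

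The claudins Cldn4 and Cldn1 of tight junctions were lower in members than in granular-gene cells in every library. Cldn4, a claudin of the granular layer, was at 5.11, 6.66, 8.01 and 8.33 CPM in members and 93.6, 98.8, 85.9 and 77.5 in granular-gene cells, while Cldn1, a claudin of all living layers, was at 96.2, 100.1, 96.2 and 93.3 against 192, 187, 146 and 144. The connexin Gja1 was at 389, 419, 354 and 375 CPM in members, below the 852, 815, 915 and 634 of Krt9 cells and above the 282, 270.2, 232 and 216 of granular-gene cells. Of 15 listed junction genes that passed the filter, 10 were lower in members than in granular-gene cells in all 4 libraries, 5 of them past 2-fold, and 3 were higher, beside the 22.8% and 58.7% of all genes.

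Within members, Krt2, Ivl and Sbsn, none of them in the rule, moved with the number of granular genes detected. From 0 to 3 granular genes, Krt2 stood at 7329.6, 9407, 11376 and 11620.1 CPM with SAR131675 and at 8802, 11906, 14873 and 15859 on the control diet. In the sham library it was 6852, 8357, 11509 and 10764 CPM, so the last step was not upward there. Involucrin, Ivl, stood at 6.55, 9.77, 13.5 and 27.4 CPM with SAR131675 and at 6.14, 7.01, 17.2 and 27.9 after LNR. Flg in SAR131675 members with 3 granular genes was 38.4 CPM, far under the 3363 CPM of granular-gene cells. Sbsn stood at 927, 1636, 2396 and 3084 CPM over the same steps with SAR131675. Median UMIs per cell went up over these steps in all 4 libraries, from 8614 to 13064 in the sham library for example, and the part of depth was not tested.

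Few members met the rule for cycling cells after thinning. Members under 2000 UMIs (62, 314, 10 and 41) were left out and the others thinned to 2000 UMIs. Of the thinned members 1.48, 1.19, 2.65 and 2.83% had at least 3 of 16 genes of S and G2/M phase, against 20.7, 18.5, 28.0 and 29.5% of basal cells treated alike. Without thinning the members' shares were 45.6, 40.6, 24.5 and 22.4%, which moved with depth, and those of basal cells 54.7, 50.7, 46.9 and 48.0%. The 2 pairs went opposite ways over this list: with SAR131675, 13 of 15 genes were higher than on the control diet, 4 past 1.5-fold, with a median log2 ratio of 0.39, and after LNR 8 of 10 were lower than in sham, 4 past 1.5-fold, with a median of −0.39. Over all genes, 42.0% were higher with SAR131675, 1.17% past 1.5-fold, and 58.6% were lower after LNR, 0.855% past it. The directions were not confined to members. The list summed to 1214, 937, 1451 and 1574 CPM in all kept cells and to 2279.8, 2084, 2945 and 3106 in basal cells. Fibroblast cells, at 286, 222, 507 and 499 CPM, had the same direction in the diet pair only. The thinned shares had overlapping intervals in both pairs (1.07 to 1.99 against 0.813 to 1.69%, and 1.52 to 4.27 against 1.74 to 4.34%).

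The study asked how lost lymphatic function acts on bone resorption, so ligands of lymphatic vessels and osteoclasts were read in members. Il34, a ligand of the CSF1 receptor on macrophages and osteoclast precursors, was found in 81.6, 76.2, 46.5 and 48.5% of members, at 216, 235, 67.9 and 73.7 CPM. Krt9 cells held it at 116, 157, 79.3 and 50.8 CPM. It was lower in basal cells (33.2, 44.3, 14.1 and 13.9 CPM), granular-gene cells (71.8, 69.6, 27.7 and 30.0) and fibroblast cells (15.6, 20.9, 8.74 and 11.1) in every library. The log2 ratio of Il34 in members was −0.12 for SAR131675 (−0.16 to −0.078) and −0.12 for LNR (−0.30 to 0.060). Csf1, the other ligand of that receptor, was at 5.62, 6.26, 8.01 and 5.51 CPM, against 142, 164, 173 and 160.0 in fibroblast cells. Tnfsf11, which encodes RANKL, gave 4, 1, 0 and 0 UMIs over all members.

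Of the VEGFR3 ligands, Vegfd was low in members at 9.87, 11.5, 5.72 and 4.74 CPM and Vegfc almost absent at 0.379, 0.184, 0.429 and 0.384, with 18, 8, 3 and 3 UMIs. Fibroblast cells held Vegfc at 72.5, 108, 22.9 and 24.7 CPM and Vegfd at 54.8, 51.1, 34.0 and 34.2. Vegfa, the main ligand of blood vessels, was at 10.6, 8.87, 8.72 and 7.05 CPM in members, with a log2 ratio of 0.26 (0.061 to 0.45) for SAR131675 and 0.31 (−0.24 to 0.86) for LNR. Vegfa, Vegfd, Csf1 and Il34 were under 1.5-fold in both pairs, although Vegfd and Csf1 had under 100 UMIs over the surgery pair. Ccl21a, a chemokine of lymphatic vessels, was at 1.35 CPM with SAR131675 and 7.30 on the control diet (−2.43), with 85.5% of the control UMIs in 10 members, and at 8.29 against 1.92 CPM after LNR, from 58 and 15 UMIs.

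SAR131675 and control diet members differed in a small share of genes. Of 11931 genes with at least 100 UMIs over the pair, 140 (1.17%) were 1.5-fold or more higher with SAR131675 and 238 (1.99%) lower, with a median log2 ratio of −0.039. Which direction held more genes depended on the cells: without upper limits on genes and UMIs it was 317 higher and 247 lower, and with the mean of per-cell CPM 140 and 756. Without the 10 members with most UMIs of each gene it was 150 higher and 203 lower, close to the counts reported. For LNR against sham, 56 of 7834 genes (0.715%) passed 1.5-fold higher and 67 (0.855%) lower, and the median log2 ratio was −0.033. Here the mean of per-cell CPM gave 69 and 201, Krt1 and Krt10 at 4% or more 21 and 53 and at 1% or more 74 and 59, and without the 10 members with most UMIs of each gene 14 passed higher and 57 lower. In part of these genes the UMIs lay in few cells. The 10 members with most UMIs of a gene held over 50% of its UMIs in 1 library or both in 47 of the 140 and 17 of the 238 SAR131675 genes. For LNR it was 36 of the 56 and 26 of the 67 genes. Over all genes tested that was so for 1.42% and 1.86%. A library with few UMIs of a gene passes this limit by count alone, so genes with a low side are flagged partly by construction. The share over all genes is therefore not a matched base. The share per direction was 33.6 and 7.14% for SAR131675 and 64.3 and 38.8% for LNR.

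Nrxn3, Spink12, Cd74 and Krt79, among the 10 furthest genes of a direction, were of this kind. Nrxn3, a neuronal adhesion gene, had 235 UMIs with SAR131675 and 8 on the control diet (log2 ratio 4.66), and 10 cells held 100% of them. The nail-type gene Spink12 had 12 UMIs after LNR and 261 in sham (log2 ratio −4.23), and 10 cells held 98.9% of the sham UMIs. Cd74, the class II invariant chain of immune cells, was at 115 CPM after LNR and 33.3 in sham (log2 ratio 1.78, 1.58 to 1.99), with 93.4% of the LNR UMIs in 10 cells. Krt79 was at 116 and 39.1 CPM in that pair (log2 ratio 1.56), with 94.4% of the LNR UMIs in 10 cells. The differences in these 4 genes rest on few barcodes.

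Genes spread over many members differed less. With SAR131675 the nuclear noncoding RNA Neat1 stood at 257 CPM against 454 on the control diet, a log2 ratio of −0.82 (−0.86 to −0.79), and was found in 90.5 and 90.9% of members. It was also lower in all kept cells (−0.62), and in the surgery pair it was 439.5 and 536 CPM in members (−0.29, −0.35 to −0.22). Camk1d, a calmodulin kinase gene, was at 918 against 1482 CPM (−0.69, all kept cells −0.76), while the surgery pair held 26.5 and 26.3 CPM. That gap between pairs goes with the version of the counting software named in the files, 8.0.1 for the diet pair and 6.1.2 for the surgery pair, and its cause was not tested, so levels are not compared between pairs. Stmn1, a microtubule regulator, was at 33.0 against 19.0 CPM with SAR131675 (0.80, 0.67 to 0.92), and 0.63 in all kept cells. In the surgery pair the most abundant gene of this kind was Gm10076, at 425 CPM after LNR and 728 in sham (−0.78), with −0.81 in all kept cells. Calm5, a calmodulin-like gene of the epidermis, was at 35.9 against 57.0 CPM (−0.67, all kept cells −0.72). Each of these differences had the same direction over all kept cells of the pair.

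Per1 and Per2, genes of the circadian clock, were lower with SAR131675. A list of 18 clock genes was drawn up after these were seen, so its counts are a description: 16 were lower and 2 higher, 4 past 1.5-fold, all lower, with a median log2 ratio of −0.46, beside 58.0% of all genes lower and 1.99% past 1.5-fold lower. Per1, a repressor of the clock, was at 11.8 CPM against 21.1 on the control diet (−0.84, −0.99 to −0.68), and Per2 at 0.716 against 2.92 (−2.02, −2.62 to −1.48). The output factor Dbp was at 3.35 against 5.34 CPM (−0.67, −0.98 to −0.38) and the repressor Cry1 at 28.9 against 42.7 (−0.56). The activators Arntl (62.9 and 62.0 CPM, 0.022) and Clock (225 and 224 CPM, 0.0032) were close to level. The median of the list was −0.42 in basal cells, −0.20 in fibroblast cells and −0.42 in all kept cells, so it was not confined to members. Of the 14 that passed the filter in the surgery pair, 9 lay below 0 and 5 above it, none past 1.5-fold, beside 58.6% and 41.4% of all genes, and the median was −0.093. The hour at which each pool was taken is not given in the sources used here, and its part was not tested.

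**Figure D5:**
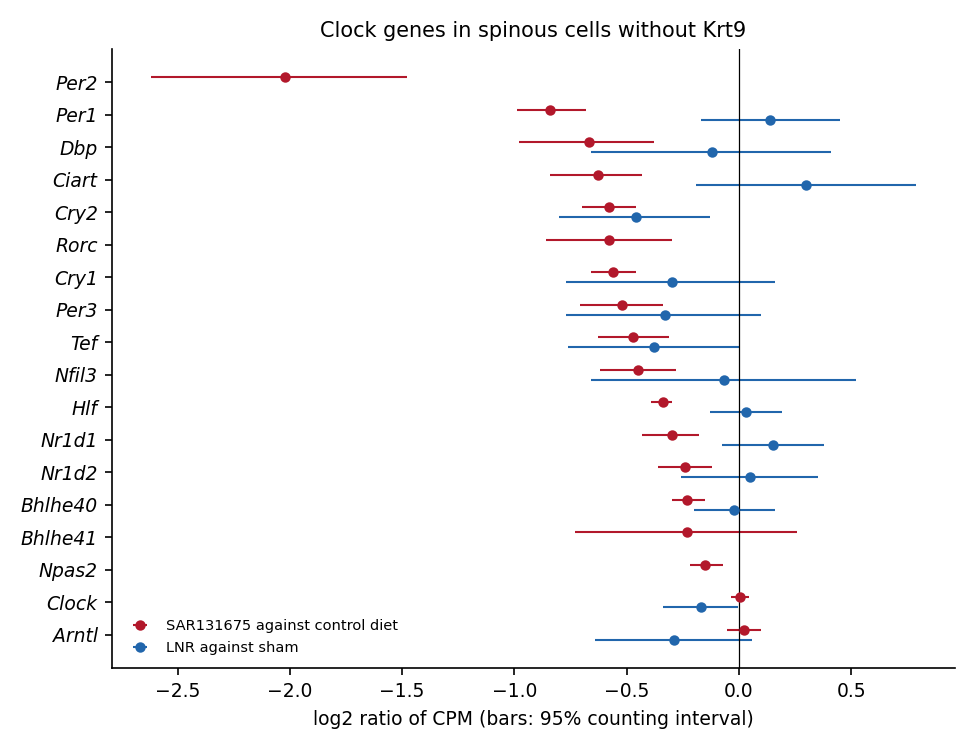
Log2 ratio of 18 circadian clock genes in members for SAR131675 against control diet and LNR against sham, with 95% counting intervals. With SAR131675, 16 of 18 lay below 0 and Per2 was furthest at −2.02, while Arntl and Clock lay near 0.

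No barrier lipid or desmosome gene passed 1.5-fold with SAR131675. The log2 ratio was below 0 in 20 of 21 lipid genes, with a median of −0.10, and in 11 of 14 desmosome genes, with a median of −0.17, beside 58.0% of all genes and a median of −0.039. Dsp, desmoplakin, was at 3145 against 3971 CPM (−0.34, −0.35 to −0.33), and at −0.31 in both Krt2-high and Krt2-low members and −0.39 in all kept cells. After LNR the lipid list had a median of −0.065, with 14 of 21 genes below 0. The desmosome list also had a median of −0.065, with 10 of 12 genes below 0. Of all genes 58.6% were below 0 and 41.4% above, with a median of −0.033. Dsp was at 2143 against 2288 CPM after LNR (−0.094). Krt16, a keratin of wounded epidermis, was at 48.2 against 19.9 CPM with SAR131675 (1.28) but lay mostly in few cells, with 10 members holding 78.1 and 77.1% of its UMIs.

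Only 6 of 7825 genes (0.0767%) were 1.5-fold or more higher in members in both pairs and 0 (0%) lower. This direction did not hold in every setting: the mean of per-cell CPM gave 3 higher and 32 lower, Krt1 and Krt10 at 4% or more 0 and 2, Krt2-high members alone 0 and 4, and leaving out the 10 members with most UMIs of each gene 0 and 1. Without the barcodes called doublets 1 gene was higher and 0 lower. The 6 genes higher in both pairs as reported were Defb6, Eln, F13a1, Myl9, Pf4 and Tyrobp, and 4278 of the 7825 genes had the same sign in both. Pf4, Tyrobp and F13a1 are genes of macrophages and platelets, at 4.02 against 0.944, 2.00 against 1.20 and 1.81 against 1.06 CPM with SAR131675 and 30.6 against 11.5, 15.4 against 7.69 and 18.7 against 8.07 CPM after LNR. They were found in 1.03 to 6.36% of members (Pf4 1.86, 1.34, 6.36 and 5.09%). Eln, elastin, and Myl9, a smooth muscle light chain, were at 16.4 against 7.30 and 13.0 against 4.23 CPM after LNR, with 88.7 and 100% of the LNR UMIs in 10 cells. Defb6 was at 102 against 61.3 CPM with SAR131675 (0.73) and 246 against 131 after LNR (0.91). The LNR ratio rested on few cells and on the keratin limit, at 0.24 without the 10 members with most UMIs, 0.0050 with Krt1 and Krt10 at 1% or more and −0.37 at 4% or more.

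Genes of other cell types were present at a low level in members. The 6 fibroblast markers summed to 66.4, 76.6, 385 and 394 CPM with none at 0 over the 4 libraries, and at least 2 of them were found after thinning in 1.09, 0.925, 4.64 and 5.24% of members. The 6 immune markers summed to 22.9, 17.7, 184 and 83.7 CPM, with at least 2 found in 0.634, 0.385, 2.32 and 1.27% of members. The 5 nail-type markers summed to 127, 62.1, 2.57 and 34.6 CPM and the 4 infundibulum markers to 339, 241, 682 and 501. The 6 sebaceous markers summed to 316, 325, 268 and 281 CPM in members and 174, 176, 188 and 203 in basal cells, and at least 2 were found after thinning in 7.92, 7.09, 5.47 and 5.24% of members. Most of this sum was Scd1 (144, 176, 135 and 129 CPM) and Mgst1 (157, 139, 122 and 135), which fibroblast cells also held, while Cidea and Awat1 lay between 0.484 and 1.39 CPM. The 5 outer follicle markers summed to between 37.9 and 79.6 CPM, the 6 of sweat gland to between 19.9 and 41.6, the 5 of the inner root sheath to between 9.29 and 27.2, the 6 endothelial ones to between 4.65 and 20.9, the 4 Schwann ones to between 0.715 and 5.58 and the 7 of hair and nail plate to between 0.875 and 1.96. Melanocyte markers summed to between 0.673 and 1.24 CPM. The part of these cell types in the gene differences above was not tested.

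Across the series, the libraries held 585284877, 448276501, 168507188 and 175998346 UMIs in 38464, 30831, 21669 and 22539 barcodes, and kept barcodes had a median of 11316, 10712, 5725 and 5851 UMIs. The limit of 5500 genes removed 15.1 and 12.9% of barcodes in the diet pair and 1.36 and 1.24% in the surgery pair. The diet pair shared 210 kept barcode sequences and the surgery pair 101, and 7 of the former were members in both libraries. Scrublet called doublets in 2.41, 0.756, 5.55 and 7.90% of members.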

How the data were processed

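Digits were digested with collagenase and dispase and sequenced as single-cell RNA-Seq. The labels list Cell Ranger 6.1.2 and GRCm39 for all libraries, but the headers of the deposited diet pair name 8.0.1. The deposited matrices hold raw UMI counts of 33696 genes per barcode, with none under 500 UMIs. Barcodes with 200 to 5500 genes, at most 30000 UMIs and at most 10% mitochondrial UMIs were kept. The authors state these limits for the LNR experiment, and they were applied here to the diet pair as well. Counts were summed over the cells of a class in each library and scaled to CPM, and log2 ratios used 0.5 added UMIs, with at least 100 UMIs over a pair or 50 over both classes per library. Intervals of single shares are exact binomial (Clopper-Pearson). Those of log2 ratios are exact conditional intervals, taken from the 2 counts given their sum. Neither kind covers the spread between animals. No depth effect beyond thinning to 2000 UMIs was removed, and cells under 2000 UMIs were left out of every thinned share. Doublets were called by Scrublet (scanpy 1.11.5, 0.8% per 1000 cells), which marked 4.54, 0.895, 7.14 and 7.20% of kept barcodes against 23.3, 19.2, 15.9 and 16.5% set beforehand, and were kept. The scripts used Python 3.11.15, numpy 2.4.6, scipy 1.17.1 and pandas 2.3.3 and were tested on simulated data. With 1 library per condition no test was made.

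Genes were named from 18 pathway and 12 cell type lists, from the 15 highest levels, and from the furthest ratios: 15 each way against Krt9 cells, 10 each way against granular-gene cells, 10 each way in each pair and in both. Mitochondrial, ribosomal and hemoglobin genes were counted but not named. Genes of the Krt2 division, of the clock and those spread over many members (the 10 top cells holding at most 20% of UMIs) were chosen after their values were seen, and the members and lists were chosen with earlier results of these data known. Alternatives were the barcode limits, the class limits, doublets, scaling, the weight of cells, the minimum count, the added UMIs and leaving out a library.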

Additional observations from a re-analysis of the deposited data

Results flagged for a closer look

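In members 12 of the 7825 genes tested in both pairs differed by 1.5-fold or more in both but in opposite directions, beside 6 in the same direction. Whether the difference between the pairs exceeds the spread of replicates was not tested, since each condition has 1 library. Log2 ratios are given for SAR131675 against control diet, then LNR against sham. Genes of dividing cells were higher in the diet pair and lower in the surgery pair: Cenpf (1.28 and −1.68), Ube2c (1.44 and −0.60), Pclaf (0.82 and −0.83) and Cdca8 (0.66 and −0.73). The neutrophil protein gene S100a8 (0.76 and −2.32), the chemokine Cxcl2 (1.20 and −0.60), the activin binder Fst (0.63 and −0.69), the nail-type gene Spink12 (1.04 and −4.23) and Gm56577 (0.60 and −0.77) had the same order. The other way round were the lymphatic and macrophage receptor Lyve1 (−0.64 and 1.43), the globin Cygb (−0.76 and 0.73) and the secreted Wfdc17 (−0.79 and 1.11). The 10 members with most UMIs held 98.9% of the LNR and 97.4% of the sham UMIs of Lyve1.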

How the results depend on the processing

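No paired analysis was possible because each condition has 1 library. For each setting below, the cause of the move was not tested unless the setting itself gives it. The log2 share ratio of Krt2-high members moved at 4% or more, from −0.20 to −0.71 (SAR131675) and from −0.15 to −0.82 (LNR). The log2 share ratio of members for SAR131675 (−0.28) was −0.20 with barcodes of at least 2000 UMIs, −0.51 with Krt1 and Krt10 at 4% or more and −0.13 among keratin cells, and that for LNR (−0.23) was 0.014 among keratin cells. With no minimum other than 1 UMI the counts of genes past the fold, on more genes tested, were 6964 (SAR131675, 378 as reported), 5298 (LNR, 123), 974 (both pairs, 6), 1311 (against Krt9 cells, 146) and 1642 (against granular-gene cells, 935). The mean of per-cell CPM gave 896, 270 and 35 for the first 3 of these. With Krt1 and Krt10 at 4% or more, on fewer cells, the counts were 74 for LNR, 2 for both pairs, 30 against Krt9 cells and 414 against granular-gene cells, and at 1% or more they were 22 for both pairs and 257 against Krt9 cells. Without upper limits on genes and UMIs, 13 genes passed in both pairs and 616 against granular-gene cells, and without doublet calls 1 passed in both pairs. Leaving out the 10 members with most UMIs of each gene, a setting chosen after seeing the data, gave 71 for LNR and 1 for both pairs. Leaving out each library in turn gave 175 to 232 against Krt9 cells, most without the LNR library, and 962 to 1166 against granular-gene cells. After LNR, Defb6 (0.91) was −0.37 at 4% or more and −0.057 in Krt2-high members, and Krt79 (1.56) was −0.85 at 4% or more, −0.022 at 1% or more, −0.12 in Krt2-high members and −0.19 without those 10 members. The Krt9 cells of the surgery pair numbered 9 and 13, and their median depth per cell was above that of members.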
